A study of Mus musculus with 27 samples.

Results

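The guidance cues described here are 9 genes, picked by symbol from the 40129 genes of the table: the class 3 semaphorins Sema3a, Sema3c, Sema3e and Sema3f, the semaphorin receptors Plxnd1 and Plxna1, the secreted ligand Slit2 with its receptor Robo1, and the netrin Ntn1. Semaphorins, Slits and netrins are cues that steer axons during development and act on growing blood vessels through receptors on endothelial cells. Class 3 semaphorins are secreted. Most of them bind a neuropilin, which signals through a plexin partner, whereas Sema3e binds Plxnd1 directly. In the retina, neurons and glia release such cues and sprouting vessels carry the receptors.

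Their RNA was measured in whole retinas of C57BL/6 (C57BL/6J in the study's methods) wildtype mice of the oxygen-induced retinopathy (OIR) model. OIR pups were kept in 75% oxygen from postnatal day (p) 7 to p12 and then in room air, which leaves a hypoxic retina around p14 and retinal neovascularization around p17. Control pups (nOIR) stayed in room air. The groups compared were nOIR p14 (6 mice), OIR p14 (6 mice), nOIR p17 (6 mice) and OIR p17 (8 mice), after mouse S4 of nOIR p14, which the study set aside for lens genes, was left out. Mice of a group shared a few litters, and which mouse came from which litter was not known, so the p-values treat littermates as independent.

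Values are normalized reads, the read count of a gene divided by a size factor for the library. Recovered totals ran from 17029536 to 33593428 reads per library. Rod markers dominated the marker lists in every group, with a summed level of at least 841209 normalized reads per mouse, as a whole retina should show. In bulk tissue, fewer cells of a type and less RNA per cell cannot be told apart. The libraries also differed in how far long and GC-rich transcripts were represented. This was expressed as the slope of log2 values on transcript length and on GC content (log2 units per SD over 11873 genes outside the guidance lists). OIR p14 S1 stood apart with a GC slope of -0.28, and OIR p17 S8 had the lowest length slope, -0.26.

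The sequences just before the transcript start are shown for the 4 members called at p17, since 3 of them were lower together and the fourth was higher. Each is the 250 bases before the start in RefSeq (GRCm38.p6), read 5′ to 3′ on the strand of the gene. One start per gene was used. That of Sema3a lies 271370 bases inside the gene as GENCODE M21 annotates it, at the start of a shorter transcript, and that of Sema3c 535 bases inside, so these windows do not lie before the first annotated start. Capitals mark GCGTG or ACGTG on either strand, letters that form the core of hypoxia response elements. The windows are chr5:13396534-13396783 (+) for Sema3a, chr5:17574566-17574815 (+) for Sema3c, chr5:14025026-14025275 (+) for Sema3e and chr6:115995006-115995255 (-) for Plxnd1.
Sema3a: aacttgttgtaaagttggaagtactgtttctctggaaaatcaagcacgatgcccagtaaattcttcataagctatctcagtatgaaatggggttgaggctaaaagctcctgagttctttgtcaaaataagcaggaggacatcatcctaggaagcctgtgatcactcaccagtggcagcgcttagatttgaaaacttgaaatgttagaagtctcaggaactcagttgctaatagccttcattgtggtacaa
Sema3c: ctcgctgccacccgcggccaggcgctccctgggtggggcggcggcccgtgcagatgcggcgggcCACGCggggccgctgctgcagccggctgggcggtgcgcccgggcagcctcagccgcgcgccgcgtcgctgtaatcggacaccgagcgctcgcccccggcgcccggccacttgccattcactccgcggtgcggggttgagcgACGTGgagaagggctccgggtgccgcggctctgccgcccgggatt
Sema3e: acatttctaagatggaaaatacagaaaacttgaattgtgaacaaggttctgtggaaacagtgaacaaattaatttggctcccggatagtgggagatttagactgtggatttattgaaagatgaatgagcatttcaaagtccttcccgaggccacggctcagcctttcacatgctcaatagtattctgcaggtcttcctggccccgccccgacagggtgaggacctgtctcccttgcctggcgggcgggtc
Plxnd1: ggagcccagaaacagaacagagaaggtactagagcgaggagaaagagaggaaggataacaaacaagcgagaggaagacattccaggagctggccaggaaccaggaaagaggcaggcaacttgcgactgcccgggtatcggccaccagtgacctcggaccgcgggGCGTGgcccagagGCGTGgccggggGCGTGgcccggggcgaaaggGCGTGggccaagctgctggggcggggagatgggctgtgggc

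The Plxnd1 window held GCGTG 4 times, at 81, 68, 56 and 36 bases before the start, and no ACGTG. The Sema3c window held 1 ACGTG and 1 GCGTG, and neither string was in the windows of Sema3a or Sema3e. The window of Robo1, called at neither age, also held 1 of the strings, at 110 bases before its start. That start lies 354843 bases inside the annotated gene. Over 32851 promoters of the same length, 28.2% held GCGTG at least once and 16.6% held ACGTG at least once. The share holding GCGTG 4 times was not counted. GC content was 64.8% for Plxnd1, 78.4% for Sema3c, 48.0% for Sema3e and 40.8% for Sema3a, beside a median of 52.4% over these promoters. A match describes the letters of a window and does not show binding.

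**Figure D1:**
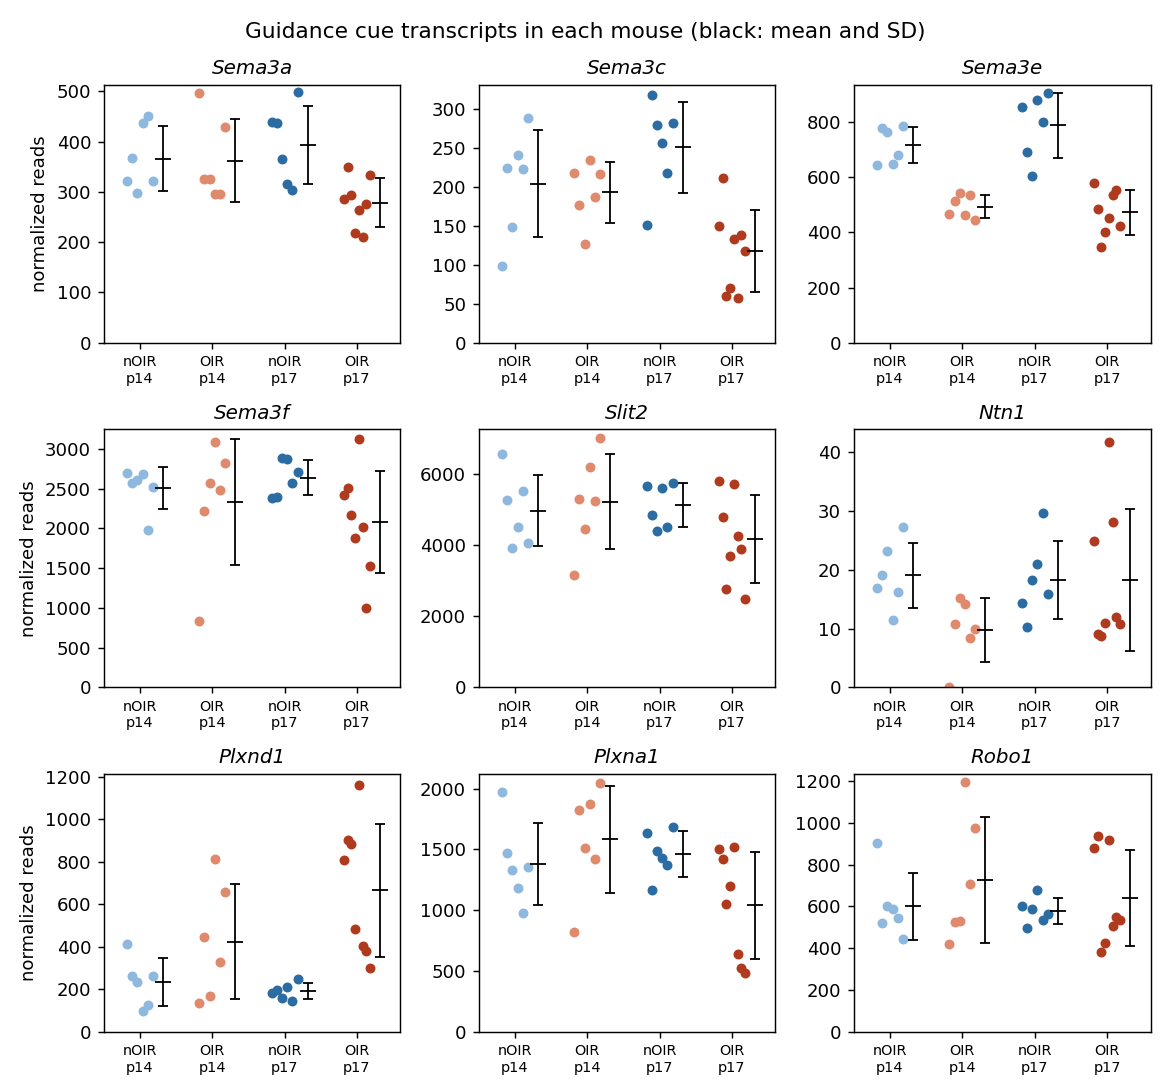
Normalized reads (y axis, from 0) of the 9 guidance cue genes in each of 26 mice, by group (x axis). Points are mice, and the black mark with bar is the mean and SD. Sema3e in both OIR groups lay below all age-matched nOIR mice, and Plxnd1 in OIR p17 lay above all nOIR p17 mice.

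Among the semaphorins, Sema3e was lower in OIR at both ages. Its level ran from 646 to 786 normalized reads (median 723) in nOIR p14 and from 444 to 541 (median 489) in OIR p14. At p17 it ran from 604 to 905 (median 827) in nOIR and from 348 to 580.2 (median 470.1) in OIR. The groups did not overlap at either age. The log2 fold change of Sema3e was -0.54 ± 0.12 (SE) at p14, with a limma adjusted p of 0.0047, and -0.74 ± 0.11 at p17, with a limma adjusted p of 1.39e-05. The effect at p17 minus that at p14 was -0.21 (95% confidence interval -0.54 to 0.13), with a limma adjusted p of 0.71.

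Sema3c, a class 3 semaphorin that acts on both endothelial cells and neurons, was lower in OIR at p17. Its level ran from 151 to 317 normalized reads (median 267) in nOIR p17 and from 57.8 to 211 (median 125) in OIR p17. The groups overlapped, with 1 nOIR mouse among the OIR values. This was a log2 fold change of -1.18 ± 0.26 (SE), with a limma adjusted p of 0.0019. At p14 the level ran from 98.6 to 288 (median 223) in nOIR and from 126 to 234 (median 201) in OIR, with a log2 fold change of -0.03 (95% confidence interval -0.60 to 0.55). The difference between the ages was -1.16 (95% confidence interval -1.95 to -0.36), and its limma adjusted p of 0.17 missed the threshold.

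Sema3a, which repels vessels and axons through neuropilin-1 and A-type plexins, passed the threshold at p17 by a small margin. It ran from 303 to 498 normalized reads (median 401) in nOIR p17 and from 211 to 349 (median 281) in OIR p17. The groups overlapped. The log2 fold change was -0.49 ± 0.15 (SE), with a limma adjusted p of 0.025. The call was lost without mouse S1, S2 or S6 of nOIR p17 or S4 or S6 of OIR p17, with limma adjusted p of 0.051 to 0.085, and with the library slopes as covariates, where limma gave an adjusted p of 0.063. At p14 Sema3a ran from 298 to 452 (median 344) in nOIR and from 296 to 496 (median 326) in OIR, with a log2 fold change of -0.03 (95% confidence interval -0.35 to 0.30).

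Sema3f, which signals mainly through neuropilin-2, did not pass the test at either age. It ran from 1984 to 2696 normalized reads (median 2587) in nOIR p14, 831 to 3082 (median 2528) in OIR p14, 2387 to 2889 (median 2638) in nOIR p17 and 999.6 to 3124 (median 2092) in OIR p17. The SD was 646 in OIR p17 against 224 in nOIR p17. It was 794 in OIR p14 against 265 in nOIR p14, where each rested on 1 mouse: 330.5 without OIR p14 S1, and 74.7 without nOIR p14 S6. Relative to nOIR its log2 fold change was -0.21 (95% confidence interval -0.68 to 0.27) at p14 and -0.41 (-0.85 to 0.04) at p17. The p14 value turned to 0.07 without OIR p14 S1.

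Among the receptors, Plxnd1 rose in OIR at p17. Plxnd1 is the receptor of Sema3e and is found on sprouting endothelial cells. Its level ran from 144 to 248 normalized reads (median 192) in nOIR p17 and from 301 to 1159.7 (median 646) in OIR p17. The groups did not overlap. The log2 fold change was 1.67 ± 0.36 (SE), with a limma adjusted p of 0.0015. At p14 Plxnd1 ran from 96.3 to 413 (median 249.5) in nOIR and from 134 to 811 (median 387) in OIR, and the groups overlapped. The log2 fold change at p14 was 0.73 (95% confidence interval -0.06 to 1.53), with a limma adjusted p of 0.35. With the library slopes as covariates, a setting chosen after seeing the data, the limma adjusted p was 0.036. That setting raised the genes called at p14 from 1652 to 2912 over all genes tested. The difference between the ages was 0.94 (95% confidence interval -0.15 to 2.02), with a limma adjusted p of 0.56.

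Markers of many cell types differed at p17, those of vessels among them. Of 8 endothelial markers, 6 were called higher at p17, with a median log2 fold change of 1.35 (0.20 to 2.35) over the 8. Their summed level ran from 6611 to 8682 normalized reads in nOIR p17 and from 9393 to 12745 in OIR p17. Most of that sum was Kdr, with a median of 6056 over the 27 mice, against 1176 for Cldn5, the next highest. The 3 tip cell markers (Esm1, Apln and Angpt2) summed to 356 to 459 in nOIR p17 and 3158 to 7914 in OIR p17. Of 5 pericyte and smooth muscle markers, 5 were called higher (summed level 2509 to 3357 in nOIR p17, 8666 to 14031 in OIR p17). So were 3 of 3 astrocyte markers (Pax2, Pdgfra and Gfap) and 4 of 5 microglia and macrophage markers. Pax2 was low, with a median of 7.33 normalized reads over the 27 mice. The 3 haemoglobin genes that mark blood were also called higher, with a median log2 fold change of 3.09 and a summed level of 128 to 987 in nOIR p17 and 988 to 14747 in OIR p17. Retinal ganglion cells release semaphorins, and 4 of 7 of their markers were called lower at p17, with a summed level of 39689 to 43935 in nOIR p17 and 25950.5 to 40301 in OIR p17. At p14, where Sema3e was also called lower, 3 of the 7 were called lower, with sums of 33454 to 42738 in nOIR and 27459 to 31527 in OIR, which did not overlap. Also at p14, 4 of 5 Muller glia and 3 of 5 amacrine markers were called lower, and the amacrine sums (22844 to 27413 in nOIR, 18647 to 20932 in OIR) did not overlap either. Rod, cone, bipolar and horizontal cell lists each had 1 marker called lower at p14. By contrast, 2 of 3 astrocyte and 3 of 3 tip cell markers were called higher. Of 8 endothelial markers, 1 was called higher and 1 lower at p14, and the 5 pericyte and smooth muscle markers gave the same counts. Of 5 microglia and macrophage markers, 1 was called higher. Over all genes tested, 3.18% were called higher and 2.91% lower at p14, and 7.39% and 5.12% at p17. At p17 bipolar (5 of 5), Muller glia (4 of 5), amacrine (3 of 5), rod (2 of 5) and horizontal cell markers (1 of 4) were called lower. Lens markers were also present in mice that were kept, with 0 of 5 called at either age. Their sums ran from 4.44 to 17946 normalized reads in nOIR p14 and 9.66 to 6049 in OIR p14. At p17 the lens sums ran from 89.6 to 10669 in nOIR and 246 to 31572 in OIR. No marker of these lists was at 0 in every mouse of a group. Their part in the results was not tested.

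Plxna1, which partners neuropilin-1 for Sema3a, ran from 976 to 1976 normalized reads (median 1344) in nOIR p14, 823 to 2043 (median 1667) in OIR p14, 1165 to 1688 (median 1458) in nOIR p17 and 484 to 1519.6 (median 1126) in OIR p17. In OIR p17 3 mice lay far below the others. OIR against nOIR gave a log2 fold change of 0.17 (95% confidence interval -0.35 to 0.69) at p14 and -0.61 (-1.10 to -0.13) at p17, where the limma adjusted p of 0.097 missed the threshold. It passed without OIR p17 S1 (limma adjusted p of 0.046), without OIR p17 S5 (limma adjusted p of 0.048) and with the library slopes as covariates (log2 fold change -0.54, limma adjusted p of 0.013). The slope setting was chosen after seeing the data. In the annotation 10.7% of its exonic bases overlap a gene on the opposite strand, Gm26811, and the library kit does not mark strand.

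Slit2 and Robo1, a ligand and its receptor that act on axons and endothelial cells, did not pass the test. Slit2 ran from 3926 to 6559.8 normalized reads (median 4887) in nOIR p14, 3164 to 7031 (median 5261) in OIR p14, 4410.4 to 5763 (median 5239) in nOIR p17 and 2489 to 5805 (median 4071) in OIR p17. Its log2 fold change was 0.05 (95% confidence interval -0.33 to 0.43) at p14 and -0.35 (-0.71 to 0.01) at p17. Robo1 ran from 445 to 906 (median 567) in nOIR p14, 419 to 1194 (median 618) in OIR p14, 495 to 679 (median 576) in nOIR p17 and 379.6 to 935 (median 542) in OIR p17. Its log2 fold change was 0.21 (95% confidence interval -0.27 to 0.68) at p14 and 0.08 (-0.37 to 0.52) at p17.

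Ntn1, a secreted cue whose receptors include Unc5b, was close to the lower limit of the measurement. It ran from 11.4 to 27.2 normalized reads (median 18.03) in nOIR p14, 0 to 15.1 (median 10.3) in OIR p14, 10.2 to 29.7 (median 17.1) in nOIR p17 and 8.65 to 41.8 (median 11.4) in OIR p17. The 0 was OIR p14 S1, where a count of 0 allows up to 3 reads, or 3.41 normalized reads. The log2 fold change at p14 was -1.25 (95% confidence interval -2.29 to -0.21), with a limma adjusted p of 0.18, and -0.64 without that mouse. At p17 it was -0.15 (95% confidence interval -1.12 to 0.83).

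**Figure D2:**
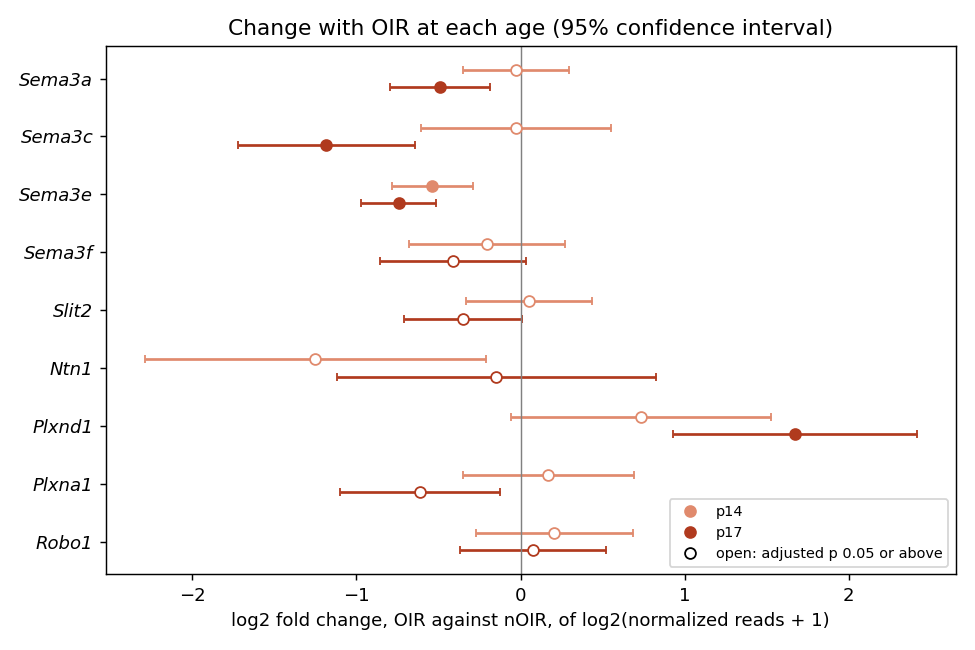
Log2 fold change of OIR against nOIR (x axis, on log2(normalized reads + 1)) for the 9 genes at p14 and p17, with 95% confidence intervals. Filled points passed the limma adjusted p of 0.05. Sema3e was filled at both ages, and Sema3a, Sema3c and Plxnd1 at p17 only.

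Counted over the members, 0 were called higher and 1 lower at p14, where 3.18% of all genes tested were called higher and 2.91% lower. At an unadjusted p under 0.05 in limma, 0 were higher and 2 lower at p14 (8.86% and 8.12% of all genes), and edgeR and DESeq2 also called 0 higher. At p17 1 was called higher and 3 lower, against 7.39% and 5.12% of all genes, and 1 and 4 had an unadjusted p under 0.05 (12% and 11.3% of all genes). The members were chosen with earlier results of these data known, so these counts are not a blind comparison with all genes. Groups did not overlap for 1 member at p14, Sema3e (lower, where 1.86% of all genes were lower and 1.91% higher without overlap), and at p17 for Plxnd1 (higher, 3.9% of all genes) and Sema3e (lower, 1.98%). The median log2 fold change of the members was -0.03 at p14 and -0.41 at p17, beside 0.02 and -0.02 over all genes tested. No member passed the limit of 2 on the log2 scale that the study used for its own lists, which 0.744% of all genes passed upward and 0.14% downward at p14, and 1.9% and 0.173% at p17.

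Age alone was compared within each treatment. In nOIR mice, 0 members were called between p14 and p17 by limma, edgeR or DESeq2, and 0 had an unadjusted p under 0.05 (3.4% of all genes higher and 3.96% lower). By adjusted p, 0.158% of all genes were called in each direction. The nOIR groups overlapped for all 9 members (0.814% of all genes were higher and 0.674% lower without overlap), with log2 fold changes between -0.15 (Plxnd1) and 0.34 (Sema3c). In OIR mice, 0 members were called by limma, edgeR or DESeq2, where 4.11% of all genes were called higher and 1.81% lower, and 2 higher and 3 lower members had an unadjusted p under 0.05, as had 9.72% and 8.56% of all genes. The OIR groups also overlapped for all 9 members (1.41% of all genes were higher and 0.387% lower without overlap). Sema3c was the lowest at -0.82 (95% confidence interval -1.36 to -0.28), with a limma adjusted p of 0.065, and Ntn1 the highest at 1.02 (0.05 to 2.00). Without OIR p14 S1, the mouse at 0, Ntn1 was at 0.42 and Plxnd1 was higher, at 0.51. The difference between the OIR effects at p17 and p14 was called for 0 members by limma, edgeR and DESeq2, while 1.43% of all genes were called higher and 0.147% lower. At an unadjusted p under 0.05 in limma, 3 members were lower and 0 higher, against 4.35% and 6.31% of all genes.

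Per kilobase of annotated exons, Sema3f was the most abundant member, with a mean of 455 ± 108 normalized reads (SD, 26 mice). Slit2 (189.7 ± 44.3) and Plxna1 (148 ± 45.4) followed. Sema3e (65.4 ± 17.2), Plxnd1 (54.8 ± 39.9) and Robo1 (38.6 ± 12.4) were next. Sema3c (26.0 ± 10.2) and Sema3a (24.8 ± 5.68) had close means, and Ntn1 was lowest at 2.62 ± 1.39. The SD is the spread over mice and does not test the order of genes measured in the same mice. By group mean, Slit2 lay above Plxna1 in nOIR p14 (195.6 against 152.8) and OIR p14 (205.5 against 174.7). The same held in nOIR p17 (202.1 against 161.5) and OIR p17 (164.2 against 115.1). The order of Sema3e and Plxnd1 differed by group: Sema3e was at 85.0 and Plxnd1 at 26.1 in nOIR p17, at 53.2 and 58.1 in OIR p14, and at 50.9 and 91.1 in OIR p17. Plxnd1 also lay below Robo1 in nOIR p14 (31.9 against 36.4) and below Robo1 (35.0), Sema3c (35.1) and Sema3a (28.4) in nOIR p17, and Sema3a (20.1) lay above Sema3c (16.4) in OIR p17. All exons of a gene in GENCODE M21 were summed for its length, so a gene with many unused exons reads low.

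Several members followed the library slopes within groups. Over the 26 mice, after the group means were removed, Pearson's r with the length slope was 0.93 for Slit2, 0.80 for Robo1, 0.79 for Plxna1, 0.73 for Plxnd1, 0.59 for Sema3f and 0.45 for Ntn1. Pearson's r with the GC slope was 0.80 for Sema3f, 0.72 for Plxnd1, 0.67 for Ntn1, 0.63 for Plxna1, 0.57 for Robo1 and 0.55 for Slit2. Sema3a, Sema3c and Sema3e had r of -0.05, 0.12 and 0.32 with the length slope and -0.38, -0.15 and -0.15 with the GC slope. The same mice and libraries underlie all these values. Slit2 and Robo1 also moved together (r of 0.78), as did Plxnd1 and Plxna1 (0.79), while Sema3e and Plxnd1 did not (-0.03). This was not particular to those pairs, since r was 0.79 for Sema3f and Plxna1, 0.74 for Sema3f and Ntn1, and 0.67 for Plxna1 and Slit2. With both slopes as covariates, the p17 log2 fold changes were 1.67 for Plxnd1, -1.04 for Sema3c and -0.65 for Sema3e, all still called, and Sema3f was called at -0.51 (limma adjusted p of 0.0098). This setting, chosen after seeing the data, raised the genes called at p17 from 3395 to 4848 over all genes tested.

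**Figure D3:**
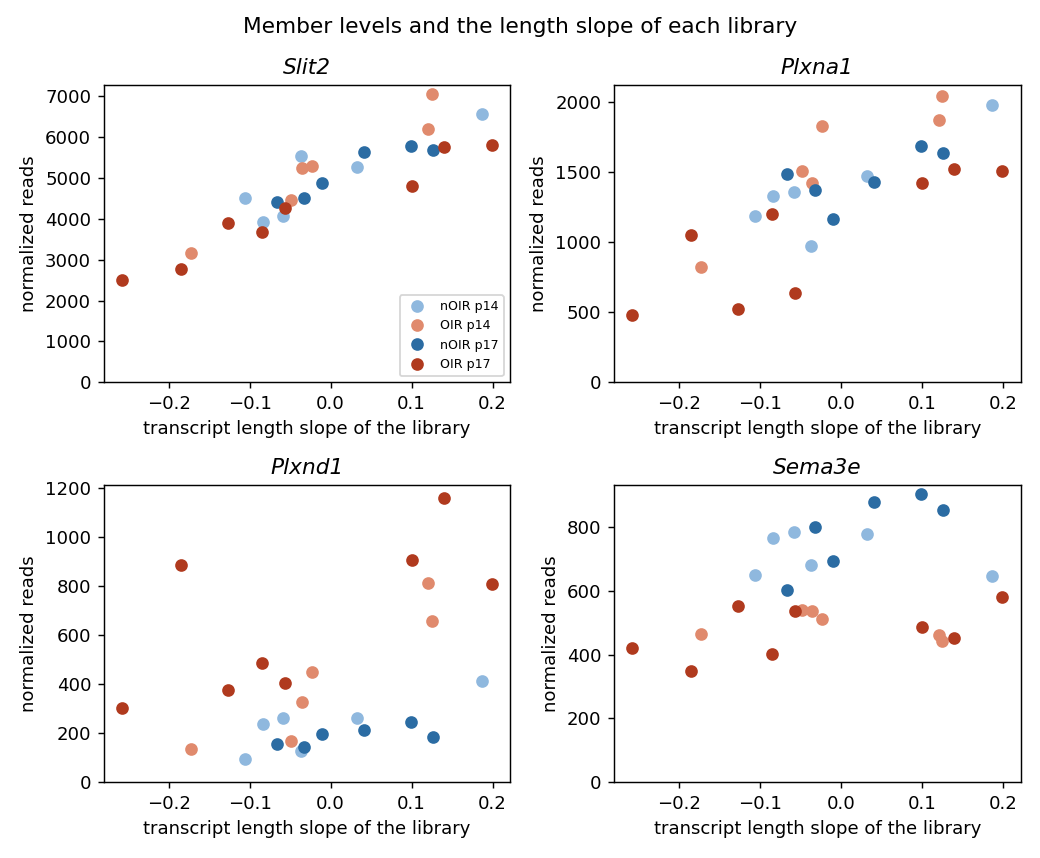
Normalized reads (y axis) of Slit2, Plxna1, Plxnd1 and Sema3e in each mouse against the transcript length slope of its library (x axis, log2 units per SD of log2 length), coloured by group. Slit2 rises with the slope in all groups, whereas Sema3e is lower in OIR than in nOIR mice of the same age where their slopes overlap, and the lowest slopes belong to OIR mice alone.

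The genes of most similar pattern (Pearson's r of log2 values over 26 mice, among genes averaging 100 normalized reads or more) were Gabrb1, Grik1 and Chrm2 for Sema3e (r of 0.90 each), and Lamc1 (0.88), Adam12 (0.86) and Lamb2 (0.84) for Plxnd1. For Sema3c they were Alg2, Fam126b and Cntn1 (r of 0.78 each), and for Sema3a Bcat1 (0.79), Zfp661 (0.76) and Elavl2 (0.74). Within groups, Plxnd1 was closest to Brsk2, Atp2b2 and Usp35 (r of 0.93 each), none of them among its 3 neighbours over all mice. Plxnd1 followed the library slopes within groups (r of 0.73 with length and 0.72 with GC). Their part in these neighbours was not tested. Of the members not called, Sema3f was closest within groups to Ccdc92b (0.96), Plxna1 to Ppp6r1 (0.95) and Slit2 to Cacnb2 (0.95). Robo1 was closest to Tub (0.91) and Ntn1 to Ehmt2 (0.83). Bcat1 was closest to Sema3a both ways, with r of 0.71 within groups. The closest to Sema3e within groups were Zfp619 (0.68), Smoc2 (0.67) and Nvl (0.66). Those closest to Sema3c were Mthfd1l (0.77), Aplp2 (0.70) and Enpp2 (0.69). For both genes, none of these was among the 3 neighbours over all mice.

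The wider family holds 51 semaphorin, Slit and netrin ligands and receptors, the members among them. Its lists too were chosen with earlier results of these data known. Of these, 3 were called higher and 1 lower at p14, and 7 higher and 9 lower at p17. Over all genes tested, 3.18% were called higher and 2.91% lower at p14, and 7.39% and 5.12% at p17. Of 20 semaphorin ligands, 3 were higher and 4 lower at p17, with a median log2 fold change of -0.12. Sema3b rose at both ages (0.86 and 1.04), as did Sema5b (0.70 and 0.76), and Sema6d rose at p17 (1.08). Sema3d, outside the rule for named genes and chosen after its value was seen, fell by 0.88 on the log2 scale (limma adjusted p of 0.021). Of 11 semaphorin receptors, 2 were higher and 1 lower at p17: Nrp1, the neuropilin of Sema3a and of VEGF, rose by 1.08, and Plxnc1 fell by 0.96. Of 7 Slits and Robos, Robo4, the endothelial Robo, rose by 1.65 at p17 and Robo2 fell by 0.41. Of 13 netrins and netrin receptors, Unc5b, a netrin receptor of endothelial cells, rose by 0.81 at p14 and 1.66 at p17, and Ntng1 (-0.46), Unc5d (-0.56) and Neo1 (-0.73) fell at p17.

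**Figure D4:**
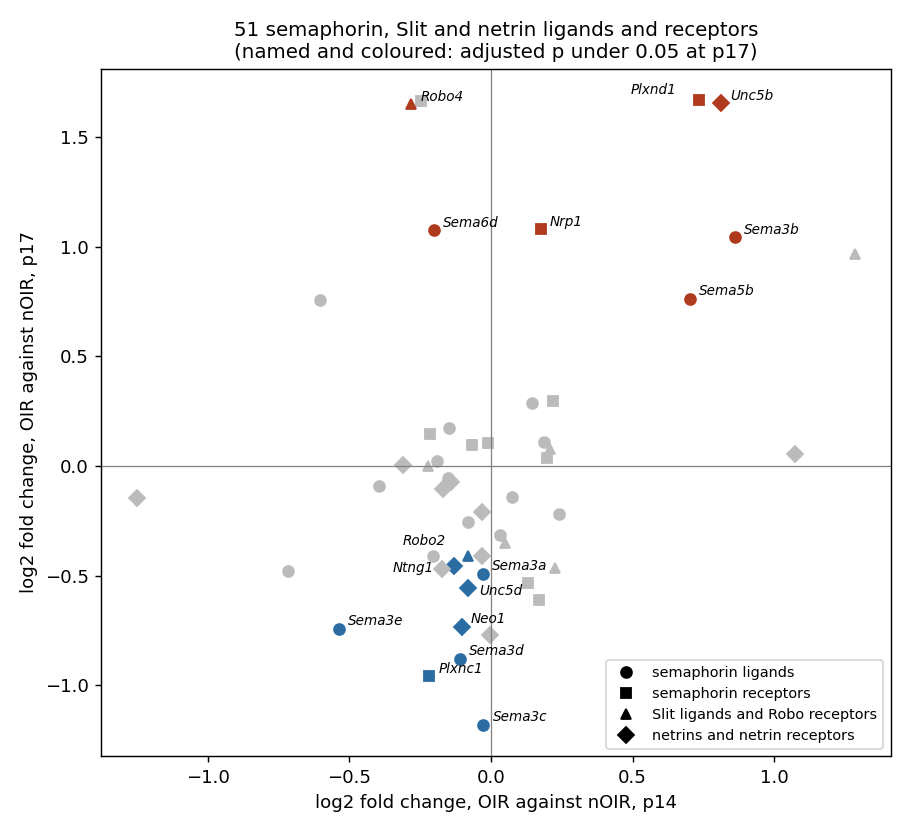
Log2 fold change of OIR against nOIR at p14 (x axis) and p17 (y axis) for the 51 family genes, with the marker shape giving the list. Named and coloured genes passed the limma adjusted p of 0.05 at p17, 7 of them higher and 9 lower.

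Of 25 intracellular mediators of guidance receptors, 2 were called higher at p17 and 3 lower, beside 7.39% and 5.12% of all genes, so the share called higher was near that of all genes. Rras, a small GTPase that plexins act on, rose by 1.44 and Mical1, a redox enzyme of the plexin pathway, by 1.16, while Enah (-0.48), Cdk5 (-0.25) and Dpysl4 (-0.22) fell. Of 22 ephrins and Eph receptors, a separate guidance family, 3 were higher and 6 lower at p17: Efna1 rose by 1.30, Epha2 by 1.84 and Ephb4, a venous Eph receptor, by 1.02, and Ephb1 (-0.49) and Epha5 (-0.36) were among those lower. The median log2 fold change at p17 was -0.05 for the mediators and -0.23 for the ephrins and Eph receptors, beside -0.02 over all genes tested.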

How the data were processed

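Poly-A RNA of whole retinas was sequenced from 27 mice, one library each, and the authors mapped reads with STAR 2.7.8a and counted them with featureCounts 2.0.1 (GRCm39), per the labels and the methods of the study. By those methods, some libraries held a single retina of a mouse and others both, which was not modelled here. The study reports similar RNA quality and amount for both kinds. The deposited signal is the read count divided by a DESeq2 1.34 size factor. The deposited table also holds the authors' group means, log2 fold changes and adjusted p-values of the authors' comparisons, which were not used. Every value was a whole multiple of 1 read to within 0.001, so whole reads were recovered for 100% of values. PCR copies were not removed, so floors cover counting error only.

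The log2 of the normalized reads plus a pseudocount of 1 was fitted with limma 3.58.1 (eBayes with trend, R 4.3.3) for the 4 groups in one model of 26 mice. Testing covered the 27137 genes whose mean was 1 or more, with Benjamini-Hochberg adjustment over all of them. A gene was called at an adjusted p under 0.05, and the script was tested on simulated data. Alternatives used edgeR 4.0.16 and DESeq2 1.42.0 on recovered reads. Positions, lengths and GC content come from GENCODE M21 (GRCm38), promoters from RefSeq, where 6 of 9 members matched. Python 3.11.15, numpy 2.4.6 and pandas 2.3.3 were used for the descriptions, and matplotlib 3.10.9 for the figures.

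Members and lists were chosen with earlier results of these data known. Named genes were all members, and from each other list the genes called at p14 or p17, up to 5 with the smallest adjusted p at p17. The 3 genes most similar to a member were taken from genes with a mean of at least 100. Comparing recovered reads of mice within a group gave a chi-square of 9.39 or more per degree of freedom, so no library was counted as a copy.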

Additional observations from a re-analysis of the deposited data

Results flagged for a closer look

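Of 36 values by member and group (9 genes in 4 groups), 3 had a mouse far from the others by Dixon's test at 95%, where chance alone marks about 1 group in 20. Sema3f was lowest in nOIR p14 S6, at 1984 normalized reads against 2519 in the next mouse. Sema3f was also lowest in OIR p14 S1, at 831 against 2217. Ntn1 in OIR p14 S1 was at 0, against 8.37 in the next mouse. OIR p14 S1 is the library with the lowest GC slope, and its part in these values was not tested.

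By the limma test of the difference itself, the effect of OIR differed between the ages for 3 of the 51 family genes. All 3 are non-members and were called higher, where 1.43% of all genes tested were called higher and 0.147% lower. Sema6d differed by 1.28 on the log2 scale (limma adjusted p of 0.0013), from -0.20 at p14 to 1.08 at p17. Nrp1 differed by 0.91 (limma adjusted p of 9.32e-05), from 0.18 to 1.08. Robo4 differed by 1.93 (limma adjusted p of 0.00022), from -0.28 to 1.65.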

How the results depend on the processing

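The 45 results were refitted under up to 16 settings besides leaving out each mouse. Of 1881 values, 0 called values changed sign, 43 uncalled values did (in 16 of the 45 results, Sema3a, Sema3c, Sema3f and Slit2 at p14 among them), 8 lost a call and 27 gained one. The p17 calls of Sema3e, Sema3c and Plxnd1 and the p14 call of Sema3e held in every setting, whereas Sema3a at p17 lost its call with libraries rescaled to equal totals (limma adjusted p of 0.055), with the slopes as covariates (0.063) and at an adjusted p under 0.01. Replicate numbers did not pair the mice (correlations of same-numbered mice ran from -0.192 to 0.125 at p14 and -0.0864 to 0.253 at p17). With the replicate block, members called were 1 lower at p14, and 1 higher and 3 lower at p17, and only the family count called lower between OIR p17 and OIR p14 moved, from 2 to 1.

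For OIR p17 against OIR p14, family genes called lower (2) became 1 with all genes above 0, with only the compared groups, with log2 Cryaa as a covariate and at an adjusted p under 0.01, 4 with DESeq2, 10 with the length and GC slopes as covariates, 11 with slopes centred within groups, and 4 without the 2 OIR libraries of lowest length slope. Members called lower there (0) became 1 with quantile normalization and without those 2 libraries, 2 with the slopes and 3 with centred slopes, where members called higher became 1 and family genes called higher (5) 8. Leaving out each mouse gave 0 to 2 members and 1 to 5 family genes lower; single mice, S1 or S3 of OIR p14, S1, S2 or S5 of OIR p17 and S1 of nOIR p14, made Sema3c or Plxna1 called there.

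At p14, family genes called lower (1) became 2 with nOIR p14 S4 included or with the slopes and 3 with centred slopes, and were 1 to 2 when each mouse was left out. Members called higher became 1 with either slope setting, family genes called higher (3) became 5 with either, and members called lower became 2 with centred slopes. Over all genes tested at p14, 1652 were called, 1835 with S4 included, 2912 with the slopes and 3057 with centred slopes. At p17, family genes called lower (9) became 4 at an adjusted p under 0.01 and 16 with centred slopes, and members called lower (3) became 6. Leaving out each mouse gave 6 to 11 family genes and 2 to 4 members lower at p17. For the difference between ages, family genes called higher (3) became 5 with DESeq2, and with centred slopes 2 members and 4 family genes were called lower. Over all genes tested, the difference was called for 429, for 690 with DESeq2 and for 1016 with centred slopes. For nOIR p17 against nOIR p14, family genes called lower (0) became 1 with S4 included, with only the compared groups, with rescaled totals and with DESeq2, 2 with either slope setting and 2 without the 2 libraries, and were 0 to 1 when each mouse was left out.

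The slope settings and the leaving out of 2 libraries were chosen after seeing the data. Centred slopes take the spread of the slopes out of the error and leave the differences in slope between groups in the fold change, so their p-values are too small and the calls they add, Slit2 and Ntn1 among them, carry no weight. Calls over all genes tested moved as well: between OIR p17 and OIR p14, 1605 genes were called, 2429 with the slopes and 3143 with centred slopes, and at p17 3395 genes were called, 2243 at an adjusted p under 0.01 and 5154 with centred slopes. The causes of the other changes were not tested. Ntn1 was at most at 41.8 normalized reads in a mouse.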

Other observations

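Of the 7 class 3 semaphorins, Sema3d, Sema3a, Sema3e and Sema3c lie on chromosome 5 within 5.35 Mb (GRCm38), and all 4 were called lower in OIR at p17, with a median log2 fold change of -0.81, where 5.12% of all genes were called lower. The call of Sema3a was lost in 5 of the fits that each left out 1 mouse, with the library slopes as covariates, with libraries rescaled to equal totals and at an adjusted p under 0.01. This was noticed after the values were seen and was not tested. The interval holds 21 protein-coding genes, of which 7 were tested. Of the 3 tested genes that are no semaphorins, Hgf, a growth factor, was lower (-0.93, limma adjusted p of 0.0087), and Pclo (-0.20) and Cacna2d1 (-0.21) were not called. On chromosome 9, Sema3b was higher and Sema3f was not called.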
